A study of Mus musculus with 6 samples.

Results

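The genes described here encode the ESCRT complexes and the machinery that forms and releases extracellular vesicles. They are 42 genes chosen by name and looked up by NCBI Gene identifier, and all 42 were found among the 16315 genes of the deposited table. Messenger RNA was measured in B16F10, a mouse melanoma line that makes pigment, of C57BL/6 origin. One group of 3 libraries came from cells given vehicle, labelled 0.05% DMSO, and the other group of 3 came from cells given SAS for 24 h, at a concentration that the labels write as 500 μm. SAS is named in the labels by these letters alone, and the series is titled for xCT inhibition (xCT is the transport chain of the cystine importer system xc-). The cells carry no genetic change in the labels, both groups are 1 cell line, and the labels do not say whether replicates were separate cultures, so p-values reflect no more than the spread among these 6 libraries, which may be technical. The sample labels give a DMSO percentage for vehicle only, so they do not say whether the SAS cells had the same solvent. The table names the vehicle columns 0 h and the SAS columns 24 h. The extraction protocol gives 24 h for vehicle too, but should 0 h mean cells taken before incubation, the compound and a day of culture cannot be told apart.

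ESCRT complexes act in sequence on the endosome membrane. ESCRT-0 gathers ubiquitin-tagged cargo, ESCRT-I and ESCRT-II bend the membrane inward, ESCRT-III filaments cut the neck of the forming vesicle, and VPS4 takes the filaments apart. The resulting multivesicular endosome either fuses with the lysosome, where its vesicles are degraded, or with the cell surface, where they leave as exosomes. A side route to exosomes joins syndecans through syntenin and ALIX to ESCRT-III, and RAB and ARF GTPases, SNARE proteins, tetraspanins, flotillins and the ceramide-forming neutral sphingomyelinase act in sorting, docking and fusion. In pigment cells the tetraspanin CD63 also sorts the fibril protein PMEL into early melanosomes.

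The values are FPKM, which divide fragments by transcript length and by all mapped fragments of the library, so levels can be compared between genes, and the fragment depth behind them is unknown. The 6 libraries had FPKM sums of 590238 to 617275, and 9746 to 9826 genes reached 1 FPKM in a library. Pigment cell markers were abundant: all 8 were listed, with a summed level of 7638 to 8601 FPKM with vehicle and 9031 to 10961 FPKM with SAS. Of the 8, 5 rose (62.5%, against 18.9% of all genes tested). The other 3 did not pass the test used below, and of these only Mlana had a lower mean with SAS. It was at 2204 ± 167 FPKM with vehicle and 2073 ± 143 FPKM with SAS. Of 9 leukocyte markers, 5 were listed, at a summed 2.81 to 3.42 FPKM with vehicle and 5.13 to 5.31 FPKM with SAS. The leukocyte markers Cd68, from 2.26 ± 0.262 to 3.97 ± 0.0404 FPKM, and Lyz2, from 0.47 ± 0.0173 to 0.86 ± 0.114 FPKM, rose, while Csf1r was listed at 0 in 5 of the 6 libraries. Their part in the results below was not tested. The summed endothelial and epithelial markers stayed at or below 0.21 FPKM in every library, and the 6 listed fibroblast markers summed to 3.09 to 3.88 FPKM with vehicle and 2.42 to 2.88 FPKM with SAS. Of these Col1a2 fell, from 0.747 ± 0.0808 to 0.397 ± 0.0306 FPKM, and the part of these markers was likewise not tested.

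The machinery was expressed over a wide range of levels. The tetraspanin gene Cd63 had the highest level, 982 ± 104 FPKM with vehicle and 1059 ± 44.3 FPKM with SAS (mean ± SD of n = 3 libraries in each group, here and for later means). Cd81 and Rab7 followed, at 346 ± 27.02 FPKM with vehicle and 385 ± 43.03 FPKM with SAS and at 329.7 ± 4.42 FPKM with vehicle and 306 ± 7.503 FPKM with SAS, and these neighbours overlapped between libraries in the vehicle group. Within ESCRT the most abundant mRNAs were those of Vps25, Chmp4b and Vps28, and the least abundant was Vps37a, at 1.03 ± 0.0971 FPKM with vehicle and 1.19 ± 0.0681 FPKM with SAS. Smpd3, which encodes neutral sphingomyelinase 2, lay at 0.04 to 0.13 FPKM in the 6 libraries. Rab27b was listed at 0 in 5 libraries and at 0.01 FPKM with SAS replicate 1. Of the 41 neighbouring pairs in the order of vehicle means, 19 pairs overlapped between libraries, so the order within those pairs is not resolved.

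**Figure D1:**
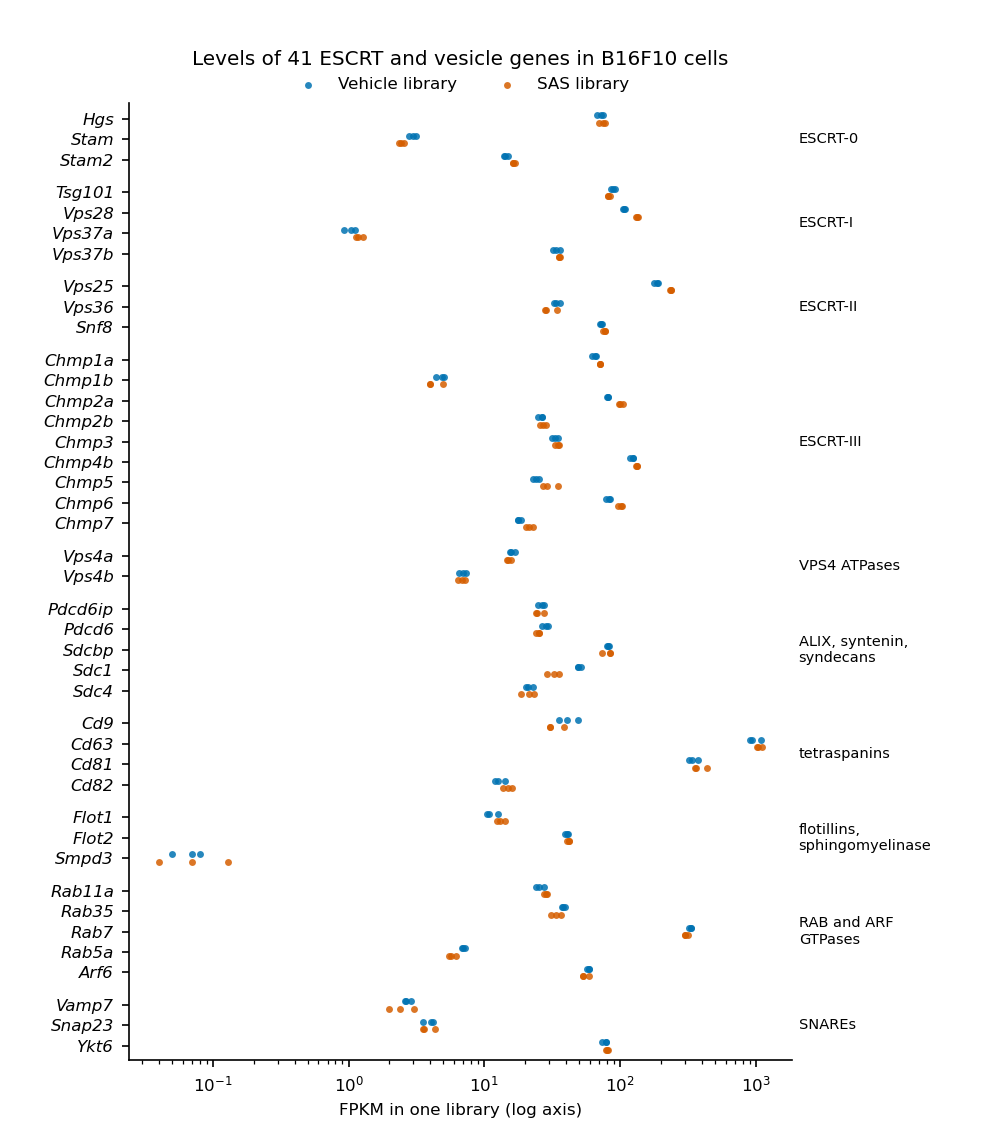
FPKM of 41 of the 42 genes in each library (log axis), by role, with vehicle libraries in blue and SAS libraries in orange. Cd63 lies highest, at 982 and 1059 FPKM on average, and Smpd3 lies at or below 0.13 FPKM, and for most genes the 2 groups lie close together; Rab27b is left out because it was listed at 0 in 5 of 6 libraries.

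SAS and vehicle were compared to ask how the transcriptome of the melanoma cells differed after a day with the compound. Several core ESCRT subunit genes were modestly higher in SAS, among them Vps25, Vps28, Chmp2a and Chmp6, at 1.23 to 1.27 times their vehicle levels, while the syndecan gene Sdc1 fell to 0.6497 of its vehicle level and none of the 4 tetraspanin, 2 flotillin and 3 SNARE genes of the set that were tested passed. Of the 42 genes, 40 had a mean of at least 0.5 FPKM and were tested. With limma and a Benjamini-Hochberg adjusted p below 0.05 over all 10615 genes tested, 8 genes rose, 5 fell and 27 did not pass. Of the 27, the tetraspanin and flotillin genes Cd9, Flot1 and Cd82 came closest to passing (limma adjusted p of 0.0504, 0.0591 and 0.0722). The 13 changed genes are 32.5% of the 40, against a background of 37.4% of all genes tested (18.9% higher and 18.5% lower). The median log2 fold change was 0.05 over the 40 genes and -0.01 over all genes tested. Groups did not overlap for 19 of the 40 genes (47.5%), against 49.4% of all genes tested (24.5% higher and 24.9% lower). As a whole, then, the set changed about as often as the background did. The higher count ran from 6 to 9 when single libraries were left out. The lower count was 3 without vehicle replicate 1 or 3 or SAS replicate 2, and 2 without vehicle replicate 2 or SAS replicate 3. As these are bulk samples, fewer cells of one kind and less RNA per cell cannot be told apart.

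**Figure D2:**
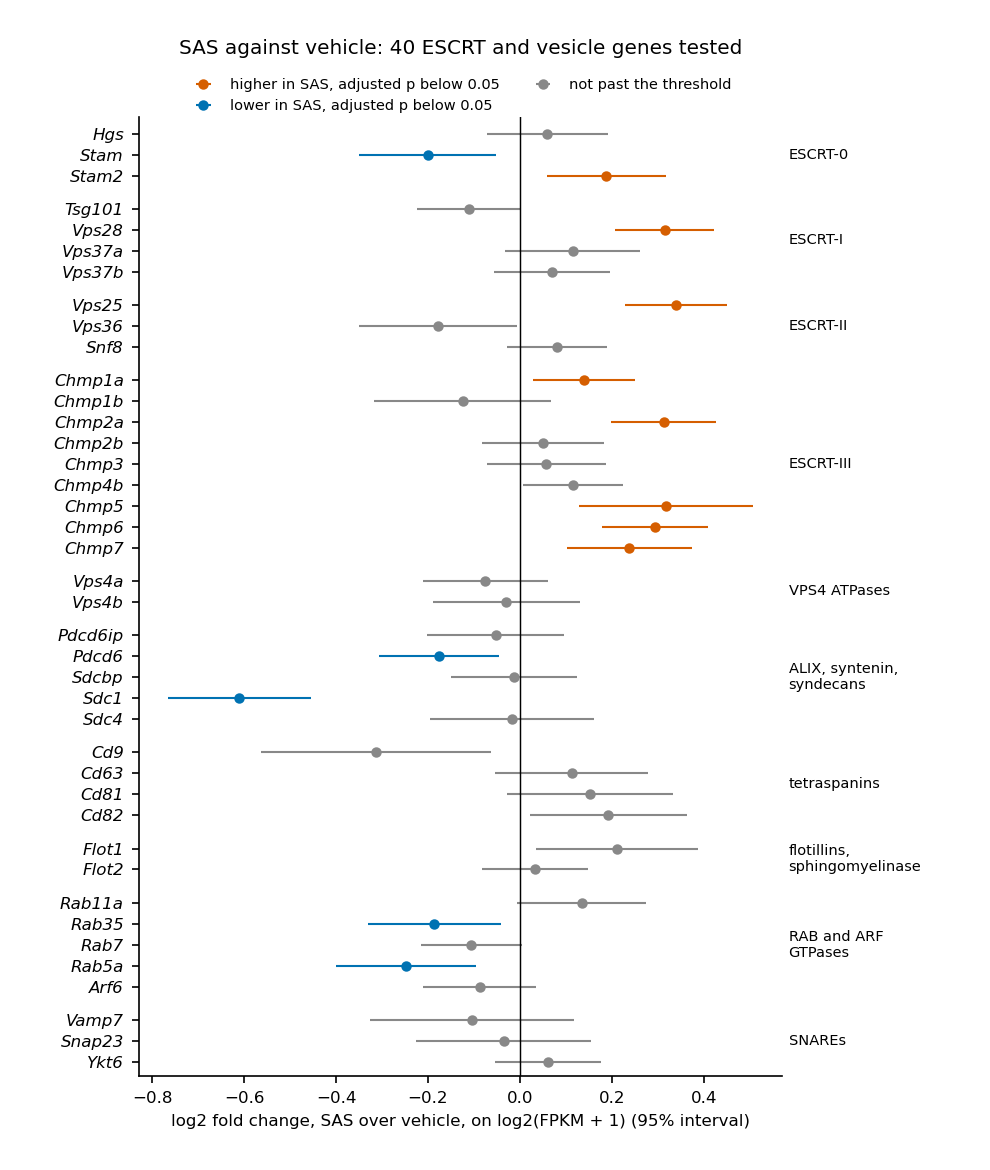
Log2 fold change of SAS over vehicle on the log2(FPKM + 1) scale for the 40 genes tested, with 95% intervals from limma, by role. Orange marks the 8 genes that rose, blue the 5 that fell and grey the 27 that did not pass; the 8 that rose are all ESCRT subunits, and Sdc1 lies farthest from 0, at -0.61.

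The counts are given by role beside the 18.9% higher and 18.5% lower among all genes tested. Of the 21 genes from ESCRT-0 to VPS4, 8 rose and 1 fell (42.9% changed, 38.1% higher and 4.76% lower), with a median log2 fold change of 0.08. Of the 19 tested genes of the vesicle and fusion roles, 0 rose and 4 fell (21.1% changed, all of them lower), with a median of -0.04. At an unadjusted limma p below 0.05 these 19 held 2 higher and 5 lower genes, and all genes tested held 2468 higher and 2554 lower of 10615. These are counts in lists chosen with earlier results known, and the difference between the 2 counts was not tested.

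ESCRT-0 consists of HGS, which binds ubiquitin and endosomal phosphoinositide, and its partners STAM and STAM2. Stam2 was at 14.2, 14.9 and 13.9 FPKM in the vehicle replicates and at 16.3, 16.7 and 16.3 FPKM in the SAS replicates. Its related gene Stam, far less abundant, was at 2.98, 3.12 and 2.79 FPKM with vehicle and 2.54, 2.44 and 2.36 FPKM with SAS. The groups did not overlap for either gene, and they moved in opposite directions: Stam2 rose 1.15-fold (log2 fold change 0.19 with SE 0.06 and limma adjusted p = 0.0271), and Stam fell to 0.826 of its vehicle level (log2 fold change -0.20 with SE 0.07 and limma adjusted p = 0.0373). The ratio of Stam2 to Stam was 4.76, 4.77 and 5 in the vehicle libraries and 6.43, 6.86 and 6.92 in the SAS libraries. Hgs, the most abundant of the 3, was at 71.3 ± 3.696 FPKM with vehicle and 74.3 ± 3.75 FPKM with SAS and did not pass (adjusted p = 0.465). The call of Stam was lost on leaving out vehicle replicate 1 or 2 (adjusted p of 0.108 and 0.112), and also leaving out SAS replicate 2 or 3 (adjusted p of 0.078 and 0.117), and that of Stam2 on leaving out vehicle replicate 1 or 3 (adjusted p of 0.0972 and 0.0697), and also leaving out SAS replicate 2 or 3 (adjusted p of 0.0703 and 0.0614). Rescaling every library to a common sum also ended both calls (adjusted p = 0.0641 and 0.0515), and the fit with no filter on low values ended that of Stam (adjusted p = 0.0668).

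In ESCRT-I, which receives cargo from ESCRT-0, Vps28 rose while Tsg101 did not. Vps28 encodes the subunit that contacts ESCRT-II, and Tsg101 the one that binds ubiquitin. Vps28 stood at 109, 106 and 108 FPKM with vehicle and at 136, 131 and 134 FPKM with SAS, with every SAS library above every vehicle library (1.25-fold, log2 fold change 0.32 with SE 0.05 and limma adjusted p = 0.000611). Tsg101 was at 86.2, 89.2 and 92.2 FPKM with vehicle and 81.9, 84.1 and 81.6 FPKM with SAS, where the groups did not overlap in the downward direction but the test was not passed (log2 fold change -0.11, adjusted p = 0.112). Vps28 exceeded Tsg101 1.26, 1.18 and 1.17-fold in the vehicle libraries and 1.66, 1.56 and 1.64-fold in the SAS libraries. The alternative subunits Vps37a and Vps37b did not pass (adjusted p = 0.197 and 0.364), and Vps37b, at 34.04 ± 1.86 FPKM with vehicle and 35.8 ± 0.487 FPKM with SAS, was far above Vps37a. In the GENCODE M21 annotation, 32.9% of the exon bases of Vps37b lie opposite exons of Hip1r, and the sources used here do not say whether counting used strand.

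ESCRT-II links ESCRT-I to ESCRT-III. Vps25 encodes its paired subunit, which recruits CHMP6, and was the most abundant ESCRT mRNA. It was at 187, 179 and 191 FPKM with vehicle and 236, 237 and 234 FPKM with SAS (1.27-fold, log2 fold change 0.34 with SE 0.05 and limma adjusted p = 0.000477). The lowest SAS library thus lay well above the highest vehicle library. Vps36, which binds ubiquitin and phosphoinositide, was at 32.6, 35.9 and 33.9 FPKM with vehicle and 34.2, 27.9 and 28.4 FPKM with SAS, with SAS replicate 1 inside the vehicle range (log2 fold change -0.18, adjusted p = 0.0962). It passed on leaving out SAS replicate 1 (adjusted p of 0.00751) and with array weights (adjusted p = 0.0491). The ratio of Vps25 to Vps36 was 5.73, 4.99 and 5.64 in vehicle and 6.88, 8.48 and 8.23 in SAS. Snf8, the subunit that holds ESCRT-II together, was higher in every SAS library, at 72.4 ± 1.47 FPKM with vehicle and 76.7 ± 1.298 FPKM with SAS, and did not pass (adjusted p = 0.224). In GENCODE M21, 67.2% of the annotated exon bases of Vps25 are shared on the same strand with transcripts of its neighbour Ramp2, so reads could be assigned to either gene. Ramp2 itself was at 26.3, 26.5 and 26.2 FPKM with vehicle and 25.8, 27.9 and 32.7 FPKM with SAS, and did not pass (adjusted p = 0.251).

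Of the 9 genes of ESCRT-III, the filament that cuts the vesicle neck, 5 rose and 0 fell (55.6% changed, against 37.4% of all genes tested, of which 18.9% higher), and at an unadjusted limma p below 0.05 these were 6 and 0. The median log2 fold change of the 9 was 0.14. Chmp6, the subunit that VPS25 engages to start the filament, was at 83.9, 78.9 and 82.9 FPKM with vehicle and 103, 97.4 and 101 FPKM with SAS (1.23-fold, log2 fold change 0.29 with SE 0.05 and limma adjusted p = 0.00143). Chmp2a, a late subunit that binds VPS4, was at 81.9, 82.04 and 80.4 FPKM with vehicle and 106, 100.1 and 98.3 FPKM with SAS (1.25-fold, log2 fold change 0.31 with SE 0.05 and limma adjusted p = 0.000921). For both genes every SAS library was above every vehicle library, by more than the spread within either group.

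Chmp5, which regulates VPS4 through its cofactor, was at 22.7, 25.1 and 24.2 FPKM with vehicle and 34.98, 27.1 and 28.9 FPKM with SAS, where replicate 1 stood above the other two (log2 fold change 0.32 with SE 0.09 and limma adjusted p = 0.014). Chmp7, known for recruiting ESCRT-III to the nuclear envelope, was at 17.8, 17.7 and 18.7 FPKM with vehicle and 20.3, 22.7 and 21.5 FPKM with SAS (log2 fold change 0.24 with SE 0.06 and limma adjusted p = 0.0115). The groups did not overlap for either gene, and the call of Chmp5 was lost on leaving out vehicle replicate 1 (adjusted p of 0.0579) and without a filter on low values (adjusted p = 0.0526). Chmp1a, which acts late in filament disassembly, rose the least of the 5, at 65.4, 62.6 and 66.01 FPKM with vehicle and 71.4, 71.2 and 71.4 FPKM with SAS (log2 fold change 0.14 with SE 0.05 and limma adjusted p = 0.048). Its call was lost without any one library: it did not pass on leaving out vehicle replicate 1, 2 or 3 (adjusted p of 0.11, 0.165 and 0.0559), and also leaving out SAS replicate 1, 2 or 3 (adjusted p of 0.0712, 0.0928 and 0.104). With all libraries kept it was lost under common-sum or quantile scaling (adjusted p = 0.0687 and 0.0556), without the trend (adjusted p = 0.077) and under robust estimation (adjusted p = 0.0534).

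The other 4 ESCRT-III genes did not pass. Chmp4b, which forms the bulk of the filament, was the most abundant of the 9 and higher in every SAS library, at 123 ± 3.21 FPKM with vehicle and 133 ± 0.954 FPKM with SAS (log2 fold change 0.12, adjusted p = 0.0852, and 0.0311 with array weights). Chmp3, a filament subunit that acts with CHMP2A, was at 33.1 ± 1.68 FPKM with vehicle and 34.5 ± 1.19 FPKM with SAS. Chmp2b, related to Chmp2a, was at 26.01 ± 0.911 FPKM with vehicle and 27 ± 1.44 FPKM with SAS (95% interval of the log2 fold change -0.08 to 0.18). The ratio of Chmp2a to Chmp2b was 3.07, 3.29 and 3.04 in vehicle and 3.94, 3.51 and 3.84 in SAS, without overlap. Chmp1b, related to Chmp1a and much lower, was at 4.77 ± 0.325 FPKM with vehicle and 4.303 ± 0.578 FPKM with SAS, and 24.0% of its annotated exon bases lie opposite an antisense gene.

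The summed FPKM of the 9 ESCRT-III genes was 456, 451 and 464 in the vehicle libraries and 537, 519 and 517 in the SAS libraries. Over the 3 ESCRT-II genes it was 292, 289 and 297 in vehicle and 347, 342 and 337 in SAS. By contrast the 2 VPS4 ATPase genes, whose products take the filaments apart, summed to 22.6, 22.8 and 23.2 FPKM with vehicle and 21.5, 21.98 and 22.1 FPKM with SAS. The ESCRT-II and ESCRT-III sums were higher in every SAS library, while the VPS4 sums were lower in every SAS library. The rise of the ESCRT-II sum, from a mean of 292 to 342 FPKM, lay mostly in Vps25, which went from 186 to 235 FPKM. Among the other roles, the ESCRT-I sums were higher in every SAS library. The sums of the ALIX and syndecan genes and of the RAB and ARF genes were lower in every SAS library, and the rest overlapped. The mean ESCRT-I sum went from 232 to 253 FPKM, and Vps28 alone from 107 to 134 FPKM. The mean ALIX and syndecan sum went from 207 to 185 FPKM, mostly through Sdc1, from 49.8 to 32.4 FPKM. The mean RAB and ARF sum went from 459 to 429 FPKM, mostly through Rab7, from 330 to 306 FPKM, which did not pass. Vps4a was at 15.6, 15.4 and 16.7 FPKM with vehicle and 14.7, 14.8 and 15.7 FPKM with SAS, and Vps4b at 7, 7.39 and 6.48 FPKM and 6.84, 7.15 and 6.39 FPKM. Neither passed (limma adjusted p = 0.366 and 0.776), against 37.4% of all genes tested, and 0 of the 2 had an unadjusted p below 0.05. Their 95% intervals, -0.21 to 0.06 and -0.19 to 0.13 on the log2 scale, lie below the log2 fold changes of Vps25, Vps28, Chmp2a, Chmp5, Chmp6 and Chmp7. The intervals of Chmp5 and Chmp7 themselves begin at 0.129 and 0.102 and overlap that of Vps4b, which reaches 0.130. The difference between the VPS4 genes and the genes named was not tested.

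**Figure D3:**
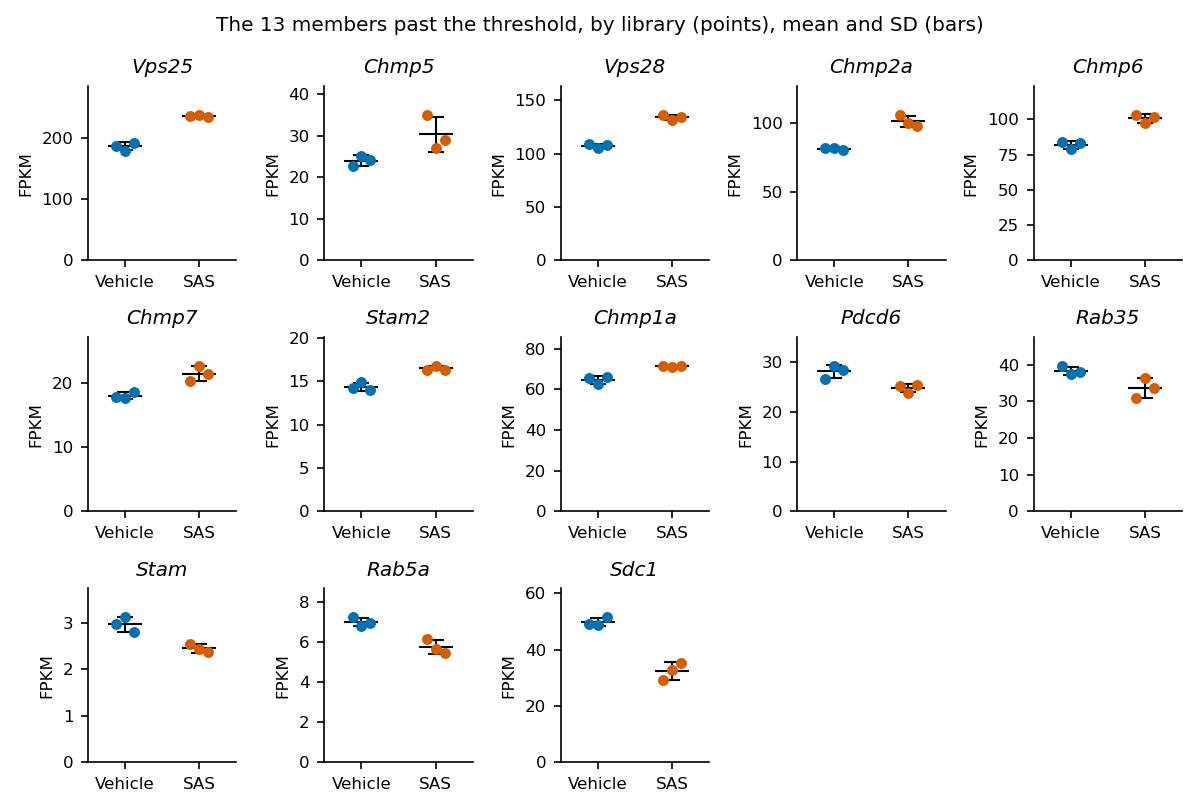
FPKM in each library of the 13 genes past the threshold, ordered by log2 fold change, with points for libraries and bars for the mean and SD of 3. In each panel the axis starts at 0 and the SAS points lie all above or all below the vehicle points; apart from Sdc1, the SAS means lie between 0.821 and 1.27 times the vehicle means.

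Promoter windows were examined for sequence shared by the genes that moved together. RefSeq promoters of build GRCm38.p6 were at hand for 29 of the 42 genes, and the 250 bases before the transcription start were searched on both strands. The antioxidant response element core, TGACNNNGC, was present in the windows of 3 of the 5 genes that rose and had a window (Vps25, Chmp1a and Chmp5, not Stam2 or Chmp2a). It was in 0 of 5 windows of genes that fell, in 3 of 19 that did not pass (Tsg101, Pdcd6ip and Rab7), and in 13.9% of 8604 tested genes with a window. The share was 10.2% of all 32851 windows. Vps28, Chmp6 and Chmp7, which also rose, had no window. Of the 3 genes that rose and had the motif, Chmp1a and Chmp5 lost their calls in 11 and 2 of 17 alternative settings. Vps25, with the motif, and Chmp2a, without it, passed in all 17. Of the E-box motifs, CACGTG was in 2 of the 29 genes and in 10.3% of tested genes, and CATGTG, the M-box core, was in 3 of the 29 and in 8.51% of tested genes. The inner CLEAR motif TCACGTGA, which contains CACGTG, was in Rab5a, which fell, and in Pdcd6ip, which did not pass (1.93% of tested genes). In Rab5a it lay within the longer CLEAR palindrome, which adds a G before and a C after it and was found in 0.604% of tested genes. The windows of Tsg101 and Rab7, which hold the antioxidant response element core and did not pass, are not printed. The windows of the 5 genes below are printed because they hold the motifs of the genes that moved, with Pdcd6ip beside Rab5a for the shared one. Each reads 5′ to 3′ on the gene's strand and ends at the base before the start, and capitals mark the motif matches, which overlap each other in Pdcd6ip.
Vps25 chr11:101253457-101253706 (+ strand): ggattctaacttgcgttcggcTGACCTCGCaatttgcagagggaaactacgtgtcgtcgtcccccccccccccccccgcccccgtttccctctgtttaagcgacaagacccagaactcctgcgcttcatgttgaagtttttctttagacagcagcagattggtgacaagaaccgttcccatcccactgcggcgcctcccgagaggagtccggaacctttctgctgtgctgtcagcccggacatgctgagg
Chmp1a chr8:123212789-123213038 (- strand): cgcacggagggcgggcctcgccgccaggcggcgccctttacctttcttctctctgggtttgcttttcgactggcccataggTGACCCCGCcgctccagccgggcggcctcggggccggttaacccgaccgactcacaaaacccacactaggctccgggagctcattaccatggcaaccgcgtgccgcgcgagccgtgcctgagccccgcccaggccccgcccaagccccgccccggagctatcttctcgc
Chmp5 chr4:40948303-40948552 (+ strand): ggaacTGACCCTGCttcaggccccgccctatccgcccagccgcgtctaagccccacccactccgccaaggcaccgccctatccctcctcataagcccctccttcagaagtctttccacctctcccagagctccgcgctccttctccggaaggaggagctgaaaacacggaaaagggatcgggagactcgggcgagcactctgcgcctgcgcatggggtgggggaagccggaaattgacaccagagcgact
Rab5a chr17:53478984-53479233 (+ strand): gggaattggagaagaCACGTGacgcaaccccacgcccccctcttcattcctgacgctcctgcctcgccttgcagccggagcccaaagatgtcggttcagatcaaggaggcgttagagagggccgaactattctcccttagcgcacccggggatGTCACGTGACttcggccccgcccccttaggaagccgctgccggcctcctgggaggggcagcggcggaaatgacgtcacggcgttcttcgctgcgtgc
Pdcd6ip chr9:113708260-113708509 (- strand): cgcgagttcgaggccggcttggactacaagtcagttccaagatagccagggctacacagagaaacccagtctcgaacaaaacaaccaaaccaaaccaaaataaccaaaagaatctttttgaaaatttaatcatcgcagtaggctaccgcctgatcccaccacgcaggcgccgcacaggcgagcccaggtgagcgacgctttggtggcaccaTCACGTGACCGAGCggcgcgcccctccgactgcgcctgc
The match begins 229 bases before the start in Vps25, 169 in Chmp1a and 245 in Chmp5, so the 3 share the letters but not the position. The palindrome begins 97 bases before the start in Rab5a, with a further CACGTG at 235 bases. A match describes letters in this window, not a bound site, and these counts were not tested.

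In the syndecan, syntenin and ALIX route, Sdc1 and Pdcd6 fell (40% of 5 genes, against 18.5% lower among all genes tested). The other 3 genes did not pass. Sdc1 encodes a heparan sulfate proteoglycan of the cell surface whose tail binds syntenin. It was at 49.2, 48.6 and 51.5 FPKM with vehicle and 29.1, 32.7 and 35.4 FPKM with SAS, and the highest SAS library lay far below the lowest vehicle library (0.6497 of the vehicle level, log2 fold change -0.61 with SE 0.07 and limma adjusted p = 0.0001). This was the largest change among the 40 genes and passed in all 17 alternative settings. Sdc4, the related syndecan, was at 20.96, 20.2 and 22.9 FPKM with vehicle and 18.6, 21.4 and 23.3 FPKM with SAS, with overlapping groups (95% interval of the log2 fold change -0.20 to 0.16). The ratio of Sdc1 to Sdc4 went from 2.35, 2.41 and 2.26 in vehicle to 1.56, 1.52 and 1.52 in SAS.

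Sdcbp, which encodes syntenin, was at 81.4 ± 1.63 FPKM with vehicle and 80.9 ± 6.23 FPKM with SAS (adjusted p = 0.894), and Pdcd6ip, which encodes ALIX, was at 26.4 ± 1.49 FPKM with vehicle and 25.4 ± 1.79 FPKM with SAS (adjusted p = 0.572). Pdcd6, the calcium-binding partner of ALIX also called ALG-2, fell slightly: it was at 26.8, 29.3 and 28.6 FPKM with vehicle and 25.2, 23.9 and 25.5 FPKM with SAS (log2 fold change -0.18 with SE 0.06 and limma adjusted p = 0.0373). Its groups did not overlap. The call was lost on leaving out vehicle replicate 2 or 3 (adjusted p of 0.132 and 0.0817), and also leaving out SAS replicate 2 or 3 (adjusted p of 0.112 and 0.0543), under array weights (adjusted p = 0.0612) and under rescaling to a common sum (adjusted p = 0.064).

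Of the 4 tetraspanin genes, whose products are the usual surface markers of extracellular vesicles, 0 passed with limma, against 37.4% of all genes tested. At an unadjusted p below 0.05 there was 1 higher and 1 lower. Cd63 was at 936, 909 and 1101 FPKM with vehicle and 1036, 1030.0 and 1109.7 FPKM with SAS, and vehicle replicate 3 lay within the SAS range (adjusted p = 0.268). Cd81 was at 338, 323 and 376 FPKM with vehicle and 357, 363 and 435 FPKM with SAS, again overlapping (adjusted p = 0.165). Replicate 3 was the highest of its group for both genes in vehicle and in SAS alike. Without vehicle replicate 3 Cd63 passed (adjusted p = 0.039), as did Cd81 with array weights (adjusted p = 0.0424).

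Cd9 was at 35.4, 40.7 and 48.9 FPKM with vehicle and 30.6, 30.5 and 38.6 FPKM with SAS, where replicate 3 overlapped the vehicle range (log2 fold change -0.31, SE 0.11, adjusted p = 0.0504). It passed on leaving out vehicle replicate 1 (adjusted p of 0.0169), and also leaving out SAS replicate 3 (adjusted p of 0.0113), and under rescaling to a common sum (adjusted p = 0.0335). Within each library Cd63 exceeded Cd9 by a ratio of 26.5, 22.3 and 22.5 in vehicle and 33.8, 33.8 and 28.7 in SAS, without overlap. Cd82 was at 12.9 ± 1.12 FPKM with vehicle and 14.9 ± 1.12 FPKM with SAS (adjusted p = 0.0722), and it passed on leaving out vehicle replicate 3 (adjusted p of 0.0287), and also leaving out SAS replicate 1 (adjusted p of 0.0332), and with array weights (adjusted p = 0.0138). Beside these values, 5 of the 8 pigment cell markers rose (62.5%, against 18.9% of all genes tested). The part of that shift in the level of Cd63, which melanosomes also carry, was not tested.

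**Figure D4:**
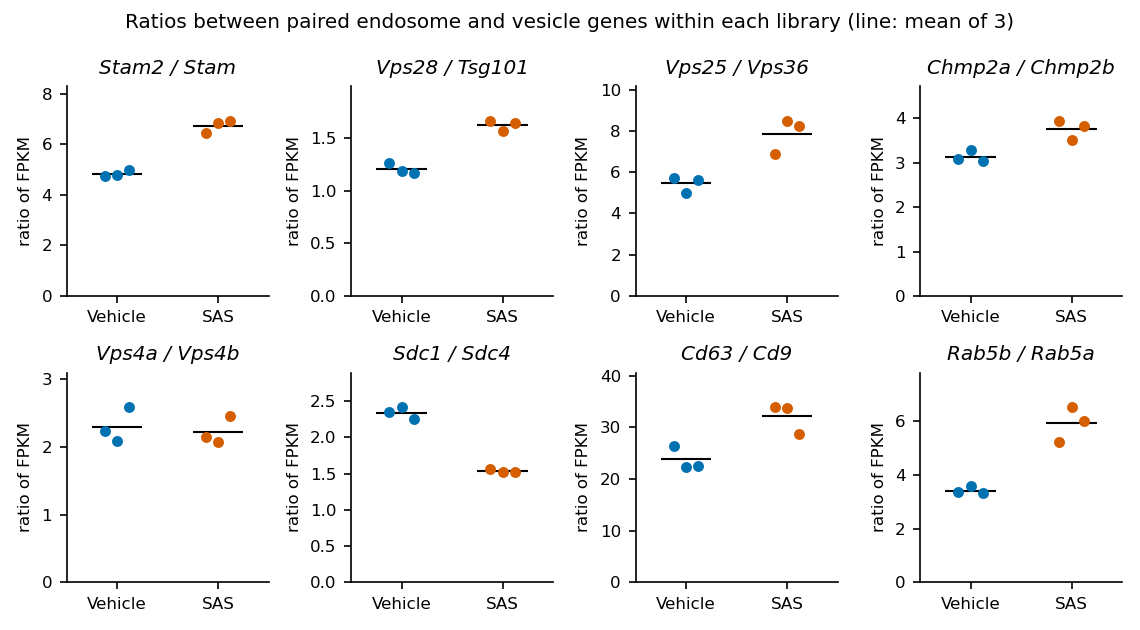
Ratios of FPKM between paired genes within each library, with points for the 3 vehicle (blue) and 3 SAS (orange) libraries and a line at the mean. Vps4a to Vps4b overlaps between groups, whereas Sdc1 to Sdc4 falls from 2.34 to 1.53 and the other 6 ratios drawn are higher in every SAS library; the pairs were chosen after their values were seen.

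Altogether 15 such pairs were computed, of which 8 are drawn, and 4 of the 15 overlapped between groups. Besides Vps4a to Vps4b these were Vps37b to Vps37a, at means of 33.5 with vehicle and 30.01 with SAS, Pdcd6ip to Pdcd6, at 0.939 and 1.03, and Flot2 to Flot1, at 3.602 and 3.14. The pairs were chosen after their values were seen, and some set a gene that rose over a gene that fell. No share over other gene pairs was computed, so the count of overlapping ratios is not a result about the set.

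Flotillins mark lipid-ordered membrane domains and appear on vesicles. Flot1 was at 12.7, 10.9 and 10.4 FPKM with vehicle and 12.5, 14.1 and 13.1 FPKM with SAS, where vehicle replicate 1 lay within the SAS range (adjusted p = 0.0591). It passed on leaving out vehicle replicate 1 (adjusted p of 0.0249), and also leaving out SAS replicate 1 (adjusted p of 0.0449) and with size factors (adjusted p = 0.0474). Flot2, the more abundant of the pair, was at 40.5 ± 1.095 FPKM with vehicle and 41.5 ± 0.813 FPKM with SAS (adjusted p = 0.645). Neither flotillin was called with limma, against 37.4% of all genes tested, and 1 of the 2 had an unadjusted p below 0.05. Smpd3, at the level given above, was too low to test.

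Among the GTPases that route endosomes, Rab5a and Rab35 fell. Rab5a encodes a GTPase of early endosomes and was at 7.27, 6.84 and 6.97 FPKM with vehicle and 6.17, 5.65 and 5.48 FPKM with SAS (log2 fold change -0.25 with SE 0.07 and limma adjusted p = 0.0162). Rab35, which acts in recycling to the surface, was at 39.6, 37.5 and 37.9 FPKM with vehicle and 30.9, 36.5 and 33.5 FPKM with SAS (log2 fold change -0.19 with SE 0.07 and limma adjusted p = 0.045). Every SAS library was below every vehicle library for both. The call of Rab5a was lost on leaving out vehicle replicate 1 (adjusted p of 0.0756), and also leaving out SAS replicate 3 (adjusted p of 0.0662). That of Rab35 was lost on leaving out vehicle replicate 1, 2 or 3 (adjusted p of 0.15, 0.0824 and 0.0715), and also leaving out SAS replicate 1 or 3 (adjusted p of 0.132 and 0.0887), and under 5 settings of scaling, filter and trend (adjusted p from 0.0505 to 0.0806).

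Rab7, the abundant GTPase of late endosomes, was lower in every SAS library, at 325, 333 and 331 FPKM with vehicle and 302, 315 and 302 FPKM with SAS, without passing (log2 fold change -0.11, adjusted p = 0.119). Rab11a, of the recycling endosome, was at 25.6 ± 1.85 FPKM with vehicle and 28.2 ± 0.706 FPKM with SAS (adjusted p = 0.118) and passed on leaving out vehicle replicate 3 (adjusted p of 0.0441). Arf6, which acts with syntenin in vesicle budding, was at 58.6 ± 1.04 FPKM with vehicle and 55.2 ± 3.002 FPKM with SAS (adjusted p = 0.243). Of the 5 tested genes of this role, 0 rose and 2 fell (40% lower, against 18.5% of all genes tested). The same counts held at an unadjusted limma p below 0.05, where all genes tested held 2468 higher and 2554 lower of 10615.

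SNARE proteins carry out the final fusion with the plasma membrane. Ykt6 was the most abundant, at 76.99 ± 3.09 FPKM with vehicle and 80.4 ± 1.57 FPKM with SAS, followed at a much lower level by Snap23, at 3.92 ± 0.355 FPKM with vehicle and 3.81 ± 0.4597 FPKM with SAS, and Vamp7, at 2.71 ± 0.157 FPKM with vehicle and 2.48 ± 0.538 FPKM with SAS. With limma 0 of the 3 passed (adjusted p = 0.384, 0.776 and 0.445), against 37.4% of all genes tested, and 0 had an unadjusted p below 0.05. The groups did not overlap for Ykt6, higher in every SAS library, and overlapped for the other two.

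Further genes of the same pathways were taken from 5 lists of named genes. Of 105 such genes, 103 were listed and 91 tested, of which 30 rose, 6 fell and 55 did not pass (39.6% changed, against 37.4% of all genes tested). Of the 91, 33% were higher and 6.59% lower, against 18.9% and 18.5% of all genes tested. These lists were chosen with earlier results known, and the difference in direction was not tested. Their median log2 fold change was 0.10. The higher count ran from 22 to 28 when single libraries were left out. Without vehicle replicate 2, the lower count was 3. Of the 23 tested ESCRT subunits and regulators, 10 rose and 2 fell (52.2% changed, 43.5% higher and 8.7% lower). Tom1, a ubiquitin-binding adaptor of endosomes, was at 32.1, 29.1 and 30.2 FPKM with vehicle and 58, 56.3 and 50.98 FPKM with SAS (log2 fold change 0.83 with SE 0.06 and limma adjusted p = 7.37e-06). Nedd4l, a ubiquitin ligase for membrane proteins, was at 15.3, 14.8 and 14.7 FPKM with vehicle and 24.3, 26.4 and 24.2 FPKM with SAS (log2 fold change 0.70 with SE 0.06 and limma adjusted p = 1.32e-05). Both moved further than any of the core ESCRT genes. Lrsam1, a ubiquitin ligase that acts on TSG101, rose from 4.82 ± 0.0608 to 6.66 ± 0.224 FPKM, and Stambp, which removes ubiquitin on endosomes, rose from 12.2 ± 1.27 to 16.1 ± 0.435 FPKM.

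Of the 15 tested genes for other vesicle tetraspanins, syndecans and lipid enzymes, 6 rose and 0 fell. This is 40% changed, all of them higher, against 37.4% of all genes tested (18.9% higher and 18.5% lower). At an unadjusted limma p below 0.05 the list held 6 higher and 2 lower genes. Hpse, the heparanase that trims syndecan chains, was at 3.21, 2.93 and 4.22 FPKM with vehicle and 6.2, 7.01 and 7.79 FPKM with SAS (log2 fold change 0.85 with SE 0.11 and limma adjusted p = 0.000187). By the ratio of means Hpse was 2.03-fold higher, in cells in which Sdc1 was lower. Any link between these changes was not tested. The tetraspanin partner Igsf8 was at 131, 125 and 143 FPKM with vehicle and 211, 213 and 283 FPKM with SAS, where replicate 3 stood above the other two (log2 fold change 0.81 with SE 0.10 and limma adjusted p = 0.000152). Smpd1, the acid sphingomyelinase of lysosomes, rose from 37.7 ± 1.19 to 64.7 ± 7.39 FPKM, and the tetraspanin gene Tspan10 rose from 201 ± 21.7 to 298 ± 34.2 FPKM. Of the other syndecans, Sdc2 was at 7.69 ± 0.433 FPKM with vehicle and 7.26 ± 0.76002 FPKM with SAS and Sdc3 at 13.9 ± 0.248 FPKM with vehicle and 15.5 ± 1.57 FPKM with SAS, and neither passed.

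Among 24 tested GTPases, effectors and SNAREs of docking and secretion, 7 rose and 4 fell (45.8% changed, 29.2% higher and 16.7% lower). Over all genes tested, 37.4% changed, 18.9% higher and 18.5% lower. Rab27a, which docks multivesicular endosomes and melanosomes and is related to Rab27b (listed at 0 in 5 libraries), was at 26.2, 27.9 and 27.9 FPKM with vehicle and 42.2, 39.5 and 43.2 FPKM with SAS (log2 fold change 0.59 with SE 0.06 and limma adjusted p = 3.54e-05). Every SAS library was thus well above every vehicle library. Rab5b, related to Rab5a, was at 24.4, 24.5 and 23.1 FPKM with vehicle and 32.3, 36.8 and 32.9 FPKM with SAS (log2 fold change 0.48 with SE 0.06 and limma adjusted p = 0.00022), so Rab5b rose and Rab5a fell. The ratio of Rab5b to Rab5a was 3.35, 3.58 and 3.32 in vehicle and 5.23, 6.504 and 6.002 in SAS. Stx7, a late endosomal SNARE, rose from 52.2 ± 2.105 to 68.1 ± 3.73 FPKM. Kif5b, a motor that carries endosomes and lysosomes outward, was at 5.47, 5.98 and 5.13 FPKM with vehicle and 3.68, 3.65 and 3.5 FPKM with SAS, and fell (log2 fold change -0.50 with SE 0.07 and limma adjusted p = 0.000393). Rab11b, related to Rab11a, fell from 80.4 ± 4.66 to 67.8 ± 1.08 FPKM, and the ratio of Rab11a to Rab11b was 0.304, 0.2896 and 0.368 in vehicle and 0.423, 0.408 and 0.417 in SAS.

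**Figure D5:**
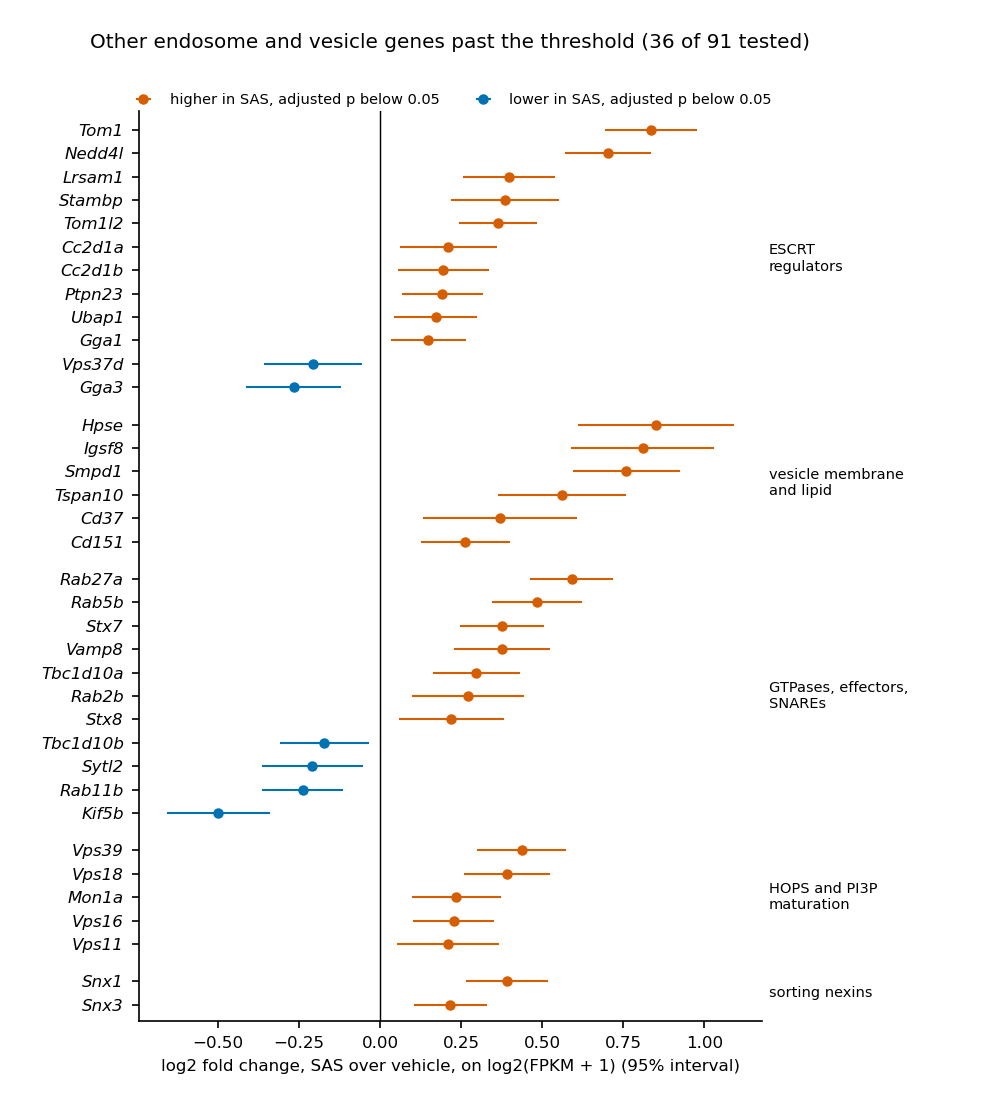
Log2 fold change of SAS over vehicle on the log2(FPKM + 1) scale, with 95% intervals from limma, for the 36 of 91 further endosome and vesicle genes past the threshold, by list. The 30 that rose (orange) run up to Hpse, at 0.85, and the 6 that fell (blue) down to Kif5b, at -0.50; only changed genes are drawn, so the plot does not show how many did not pass.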

How the data were processed

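Libraries for the BGISEQ-500 platform were made from total RNA, per the labels' protocols. Per the file headers, the authors deposited 1 table of FPKM values, with 1 column per library and 2 decimals. The submitters' processing notes name FastQC, HISAT and Bowtie2, with no version and no role. For the program behind FPKM, its build, its annotation and its use of strand: not given in the sources used here. Depth is unknown, so no counting interval was computed. FPKM is a share of a library, so the rest fall when abundant genes rise. Columns named 24 h were taken as SAS by their label and those named 0 h as vehicle by elimination.

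Genes were matched to symbols through the mouse RefSeq table of GRCm38.p6 (16206 of 16315 identifiers), and GENCODE M21 served for shared exons. limma 3.58.1 in R 4.3.3 was fitted to log2(FPKM + 1), with a trend of variance on level, for the 10615 genes whose mean reached 0.5 FPKM. Calls used a Benjamini-Hochberg adjusted p below 0.05. Such fold changes understate those of low genes. The procedure was tested on simulated data with independent noise and far fewer changed genes than were called here. Recovery was required only for changes larger than any in the set. How often smaller changes were recovered is not given here. The members and lists were chosen with earlier results of these data known. Every gene of the set is named, and of the further lists up to 4 changed genes with the largest absolute log2 fold change. Other genes named from those lists, and the paired genes of the ratios, were chosen after their values were seen. Ratios, sums and motif counts are descriptions. An exact permutation of 3 against 3 libraries cannot go below 0.10. Alternatives were a pseudocount of 0.1 or 0.5, a filter at 5 FPKM or none, scaling by size factors, by quantiles or to a common sum, a block on replicate number, robust estimation, array weights or no trend in limma, and leaving out each library. Processed copies of Tsg101, Cd9, Cd63, Rab7, Rab5a and Vamp7 are annotated and may share their reads. Tables and plots used Python 3.11.15, pandas 2.3.3, numpy 2.4.6 and matplotlib 3.10.9.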

Additional observations from a re-analysis of the deposited data

How the results depend on the processing

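Across 17 alternative settings, Vps25, Vps28, Chmp2a, Chmp6, Chmp7 and Sdc1 passed in every one, and the other 7 calls among the members were each lost in 2 or more. No called gene changed direction. With pseudocounts of 0.1 and 0.5 the members gave 8 higher and 5 lower genes, as in the fit reported. The lower count among members was 3 with no filter on low values and 3 after rescaling to a common sum, and ran from 2 to 5 as each library was left out. The lower count among the further endosome and vesicle genes was 3 with no filter, 3 with a filter at 5 FPKM and 3 with a common sum, and ran from 3 to 5 without single libraries. The filter at 5 FPKM left out Vps37d, Sytl2 and Kif5b, whose means lie below it; for the other settings the cause was not tested. That count was 9 with quantile normalization and 9 with a replicate block. With a replicate block the members gave 8 higher and 5 lower genes, gaining Cd9 and Cd82 (adjusted p = 0.00323 and 0.0332) and losing Chmp1a and Rab35 (adjusted p = 0.0533 and 0.0512), and gave 2187 for all tested genes higher in SAS and 2158 for all tested genes lower in SAS. Deviations of same-numbered libraries correlated at -0.08, 0.145 and 0.234 across genes, and not every library correlated best with its own number, so the numbers were not taken as pairs. The median log2 fold change of all genes moved by less than 0.02 under each rescaling. Fragment depth is unknown, so a detection limit for genes near 0, such as Smpd3 and Rab27b, cannot be given.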

Other observations

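Genes of endosome maturation and of recycling from endosomes were also measured. The HOPS and CORVET tethers join endosomes and lysosomes. The list held genes of these tethers and of the phosphoinositide kinase complexes, with Mon1a, Mon1b, Ccz1 and Eea1. Of its 19 tested genes 5 rose and 0 fell (7 and 1 at an unadjusted limma p below 0.05). The changed share was 26.3%, below the 37.4% of all genes tested. All of these were higher, and 18.9% of all genes tested were higher and 18.5% lower. Vps39, a HOPS subunit that binds RAB7, was at 10.8, 10.6 and 10.2 FPKM with vehicle and 14.4, 15.3 and 14.1 FPKM with SAS (log2 fold change 0.44 with SE 0.06 and limma adjusted p = 0.000392). Vps18, a subunit of both tethers, was at 13.03, 12.2 and 12.8 FPKM with vehicle and 16.6, 17.5 and 16.8 FPKM with SAS (log2 fold change 0.39 with SE 0.06 and limma adjusted p = 0.000584). The groups did not overlap for either. Mon1a, part of the exchange factor that loads RAB7, rose from 14.3 ± 0.721 to 17.01 ± 0.601 FPKM, and the tether subunit Vps16 rose from 19.2 ± 0.521 to 22.7 ± 0.6105 FPKM. Mon1a did not pass on leaving out vehicle replicate 1 or 2 (adjusted p of 0.056 and 0.0566). The kinase subunits Pik3c3 and Pik3r4 did not pass (adjusted p = 0.163 and 0.172).

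Retromer returns receptors from endosomes to the Golgi and the surface. Of 10 tested retromer and sorting nexin genes 2 rose and 0 fell (2 and 1 at an unadjusted limma p below 0.05). This is 20% changed, all of them higher, against 37.4% of all genes tested (18.9% higher and 18.5% lower). The median log2 fold change of the 10 was -0.07. Snx1 was at 51.6, 53.3 and 49.9 FPKM with vehicle and 72.3, 65.9 and 65.7 FPKM with SAS (log2 fold change 0.39 with SE 0.06 and limma adjusted p = 0.000467), and Snx3 rose from 256 ± 7.51 to 297 ± 7.13 FPKM. The core retromer genes Vps26a, Vps29 and Vps35 did not pass (adjusted p = 0.18, 0.882 and 0.331).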
